A study of Mus musculus with 5 samples.

Results

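Week 2 and week 3 ta-activated ILC2s, the lung ILC2s of tumour-bearing mice that had been activated in culture, were compared with each other. All barcodes of the 2 cultured libraries with at least 200 detected genes and under 5% mitochondrial counts were taken. This gave 6717 cells of 7984 deposited barcodes, 2895 of 3579 from week 2 and 3822 of 4405 from week 3. Under the same filter all 5 libraries of the study held 16530 cells of 18628 barcodes.

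The study sequenced single ILC2s of wild-type female C57BL/6 mice, 4 to 8 weeks old, on the 10x Genomics 3' platform. The ta (tumour-associated) cells came from mice that carried TC1 tumours under the skin, and they were taken from the lungs, away from the tumour, in week 2 or week 3 of tumour growth. Each group was a pool of 5 mice, and its cells were sorted as CD45+ Lin- ST2+ CD127+ Thy1.2+ cells. Ta-non-activated cells were sequenced fresh, as were naïve cells of mice with no tumour, and ta-activated cells were first kept for 7 days with rhIL-2, rmIL-33 and TSLP at 10 ng/mL each. Each group is 1 library of 1 pool, so week, pool, culture and library cannot be told apart. No test was possible between the weeks. Cells of a library are not replicates, and the intervals given cover counting error only.

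ILC2s are innate lymphocytes that lack rearranged antigen receptors. They respond to epithelial alarmins, among them IL-33, which acts through ST2 and MyD88 on NF-kB, and TSLP, which acts through JAK kinases and STAT5. IL-2 also acts on STAT5 and favours growth and survival. Activated ILC2s release IL-5, IL-13 and amphiregulin, and their identity rests on the transcription factors GATA3 and RORα. Type I interferons act through the interferon-stimulated response element of many antiviral genes, and interferon γ induces the guanylate-binding proteins (GBP) and immunity-related GTPases (IRG).

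The 2 cultured libraries had similar median depths and differed in the deepest cells. Kept cells had medians of 13636 unique molecular identifiers (UMIs) and 3196 genes in week 2, and 12296.5 UMIs and 3180 genes in week 3. The 90th percentile was 41771 UMIs in week 2 and 30248 UMIs in week 3, and deep cells weigh more in the summed counts. The median mitochondrial share was 3.23% and 3.21%. The libraries shared 2 barcodes among those deposited. Of the 15 ILC2 markers, 14 reached 20 CPM in at least 1 of the libraries, where CPM is the UMIs of a gene per 1000000 UMIs of the library. *Klrg1* was below that level, at 7.32 CPM in week 2 and 8.12 CPM in week 3. One unnamed gene model that overlaps ribosomal RNA, *Gm42418*, was at 856 CPM in week 2 and 5187 CPM in week 3, and *Lars2*, which can pick up the same kind of reads, was at 25.9 and 113 CPM. The part of such ribosomal reads in the differences below was not tested.

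Most genes lay within 2-fold of each other. Of 5627 genes with at least 20 CPM in either library, 5319 (94.5%) differed by less than 2-fold on the scale of CPM with 1 CPM added, 130 (2.31%) were at least 2-fold higher in week 2 and 178 (3.16%) were at least 2-fold higher in week 3. Beyond 4-fold there were 43 and 32 genes, and beyond 8-fold there were 20 and 6 genes. The counts given below for gene lists are to be read beside these shares of 2.31% and 3.16%. The median log2 ratio of week 2 over week 3 was -0.08, with quartiles at -0.33 and 0.17. All log2 ratios below are of week 2 over week 3 on this scale, so a negative value means a higher level in week 3.

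**Figure D1:**
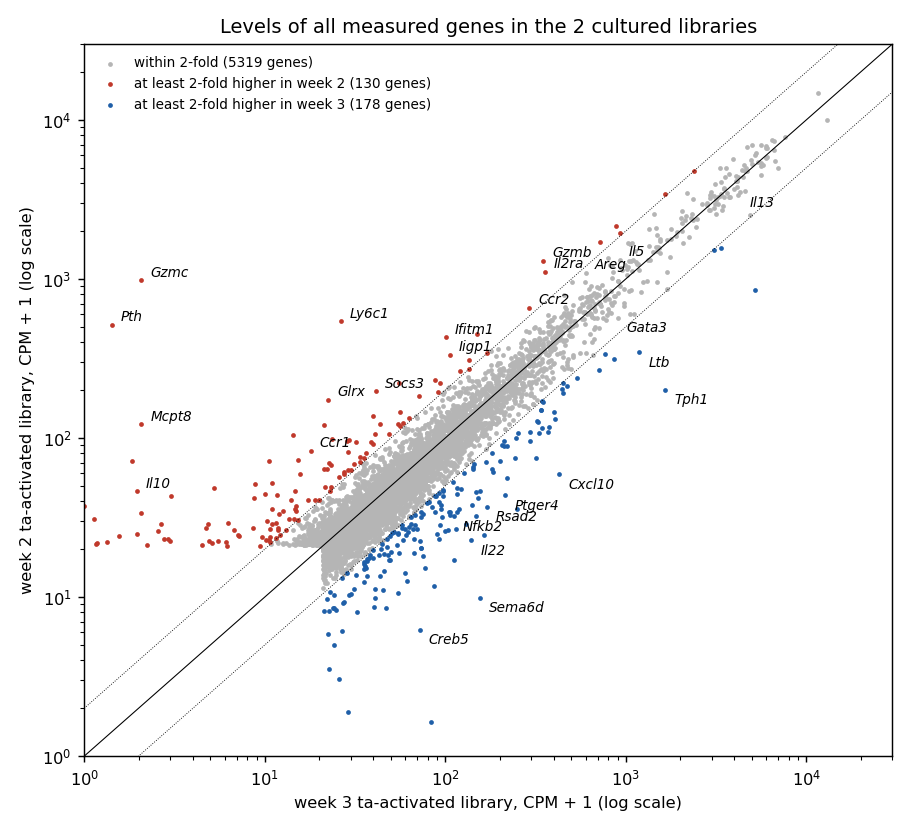
Level of each of 5627 genes in the week 3 (x axis) and week 2 (y axis) ta-activated libraries, both as CPM + 1 on log scales, with 1 point per gene, a solid line of equal levels and dotted lines at 2-fold. Among the labelled genes the farthest above the line are *Gzmc* (979 and 1.07 CPM) and *Pth* (512 and 0.421 CPM), and the farthest below it are *Sema6d* (8.87 and 155 CPM) and *Creb5* (5.25 and 71.1 CPM).

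Genes of the NF-kB pathway were lower in week 2 throughout. Of 17 measured members, 17 had a lower level in week 2, 7 by at least 2-fold and none in the other direction, with a median log2 ratio of -0.77 against -0.08 over all genes. *Nfkbia*, the inhibitor IκBα that NF-kB itself induces, was at 313 CPM (95% interval 309 to 318) in week 2 and 862 CPM (855 to 869) in week 3, a log2 ratio of -1.46. *Nfkb2*, the p100 precursor of the noncanonical pathway, was at 31.1 and 110.3 CPM, and its partner *Relb* was at 30.8 and 94.3 CPM. *Rel*, the c-Rel subunit, was at 25.6 and 65.6 CPM. The regulators followed in the same direction. *Tnip1*, a partner of the deubiquitinase A20, was at 33.1 and 105 CPM, *Nfkbie*, the inhibitor IκBε, was at 15.2 and 34.3 CPM, and *Traf1*, an adaptor of TNF receptors, was at 169 and 343 CPM, a ratio that was within 2-fold in some alternatives. *Nfkb1*, the p105 precursor, was within 2-fold at 127 and 198 CPM. Naïve and fresh tumour-associated cells had *Nfkbia* at 1494, 699 and 523 CPM (naïve, week 2 and week 3), so the week 2 culture had the lowest level of the 5 libraries.

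Cytokines of the TNF family showed the same order. On the list of type 1, type 17 and TNF family cytokines, 12 genes were measured, of which 8 were at least 2-fold higher in week 3 and none in week 2, with a median log2 ratio of -1.13. *Ltb*, lymphotoxin β, was at 344 CPM in week 2 and 1185 CPM in week 3. *Lta*, its partner in the membrane complex, was at 38.4 and 91.8 CPM, and *Tnf* was at 22 and 57.5 CPM. *Tnfsf8*, the ligand of CD30, was at 17 and 74.2 CPM, while *Tnfrsf8*, which encodes CD30 itself, was at 93.6 and 31.1 CPM, the opposite order. *Tnfsf10*, the death ligand TRAIL, was at 31.0 and 72.6 CPM. *Osm*, a cytokine of the IL-6 family, was similar at 111 and 104 CPM.

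Summed over each list, these differences were spread over most cells. When each cell was thinned to 5000 UMIs, the median cell had 4 UMIs of NF-kB pathway genes in week 2 (2689 cells) and 12 in week 3 (3536 cells), and 91.6% of week 3 cells lay above the week 2 median. For the list of type 1, type 17 and TNF family cytokines the medians were 3 and 10 UMIs and the share was 89.4%. A UMI of *Nfkbia* was found in 47.0% of week 2 cells and 91.2% of week 3 cells at this depth, and of *Ltb* in 52.9% and 89.3%. In cells that carried 2 or more of the 12 cell-cycle genes, *Nfkbia* was at 202 CPM in week 2 and 654 CPM in week 3. In the other cells it was at 377 and 939 CPM, so the order held in both classes. No cell type that should lack these transcripts was set apart in the cultures, and the part of free RNA in the shares of cells was not tested.

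**Figure D2:**
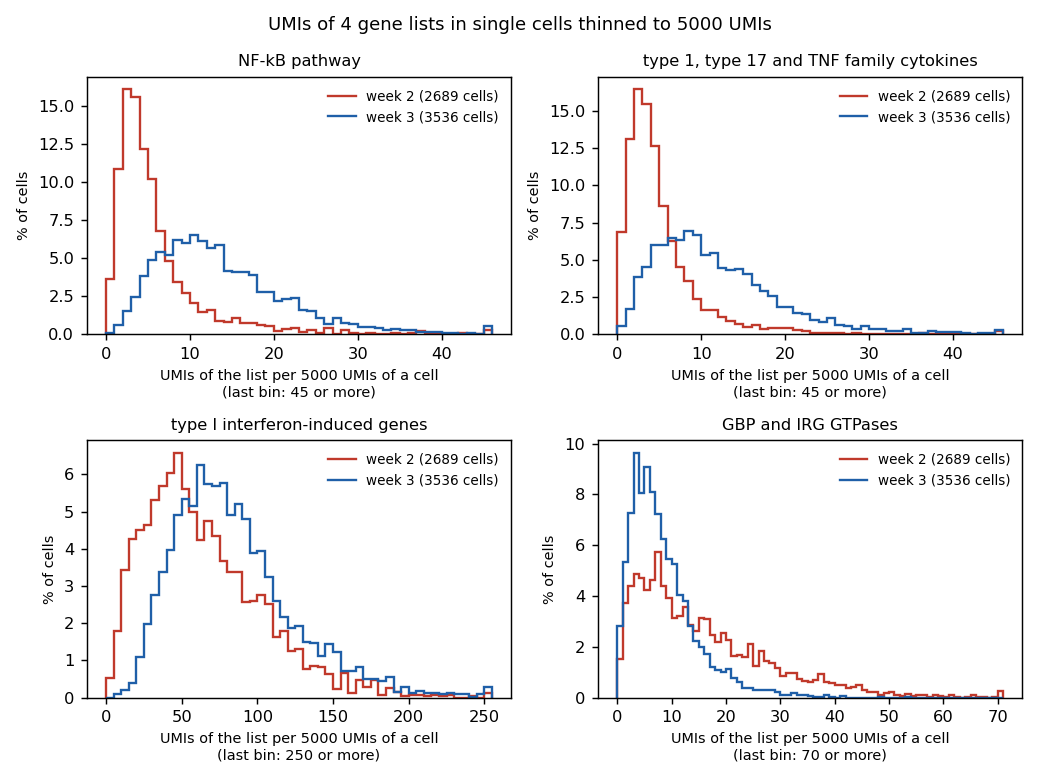
Distribution over cells of the summed UMIs of 4 gene lists, with each cell thinned to 5000 UMIs (x axis: UMIs of the list; y axis: % of cells; red: week 2, blue: week 3). Week 2 cells lie to the left of week 3 cells for NF-kB pathway genes (medians 4 and 12). The same holds for type 1, type 17 and TNF family cytokines (3 and 10) and type I interferon-induced genes (56 and 77). For GBP and IRG genes (12 and 6) week 2 cells lie to the right.

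The promoters of the NF-kB pathway genes are shown because several of these genes are known targets of the factor. The pattern GGGNNNTTCC was searched on both strands of RefSeq promoters of GRCm38.p6, from 250 bases before to 50 bases after each gene's start. It was present in 6.31% of 27025 genes with a promoter, in 7.91% of the 4461 genes measured here that had one, in 6 of 14 NF-kB pathway genes with a promoter entry and in 5 of the 6 of these that were at least 2-fold higher in week 3. Among all week 3 genes it was present in 22 of 129 (17.1%), and among week 2 genes in 11 of 95 (11.6%). On the list of type 1, type 17 and TNF family cytokines it was present in 2 of 10 genes with a promoter entry. Of the 8 of these that were at least 2-fold higher in week 3, only *Ltb* had it. A match is a description of the sequence only. The 40 bases around the match nearest the start are given 5′ to 3′ on the strand of the gene, with each match in capitals, for the genes for the inhibitor, the c-Rel subunit, the 2 regulators and *Ltb*.
Nfkbia, chr12:55492652-55492691, reverse strand: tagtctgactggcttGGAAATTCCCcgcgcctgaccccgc
Rel, chr11:23771036-23771075, reverse strand: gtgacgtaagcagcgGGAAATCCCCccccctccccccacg
Tnip1, chr11:54962972-54963011, reverse strand: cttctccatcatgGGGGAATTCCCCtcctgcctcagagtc
Nfkbie, chr17:45555579-45555618, forward strand: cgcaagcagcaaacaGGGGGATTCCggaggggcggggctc
Ltb, chr17:35194405-35194444, forward strand: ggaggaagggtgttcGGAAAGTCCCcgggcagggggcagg

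Type I interferon-induced genes were mostly higher in week 3. Of 54 measured, 49 had a higher level in week 3 and 5 in week 2, and 17 were at least 2-fold higher in week 3 against 1 in week 2, with a median log2 ratio of -0.70. Among those that were higher in week 3, the largest differences were in *Rsad2*, the antiviral enzyme viperin, at 35.8 CPM (34.3 to 37.4) in week 2 and 168 CPM (165 to 171) in week 3, and in *Ifit1bl1*, at 13.1 and 58.7 CPM. *Ifi44* was at 19.4 and 72.5 CPM, *Ifit3b* was at 18 and 66.4 CPM, and *Usp18*, which removes the ubiquitin-like ISG15 and dampens interferon signalling, was at 27.2 and 92.2 CPM. *Isg15* was within 2-fold, at 862 and 1701 CPM, as was *Bst2*, tetherin, at 954 and 1241 CPM. *Ifi27l2a* was at 1527 and 3087 CPM, a log2 ratio of -1.01 that stood at the 2-fold limit and was under it in several alternatives. The gene of the list that was at least 2-fold higher in week 2 was *Ifitm1*, at 429 and 99.7 CPM, and its neighbour *Ifitm3*, a restriction factor of virus entry, was within 2-fold at 884 and 691 CPM. Reads shared between *Ifit3* and *Ifit3b*, *Ifit1* and *Ifit1bl1*, or the *Ifitm* genes could be split or lost in counting, and their levels are uncertain.

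GBP and IRG genes, by contrast, were higher in week 2 or similar. Of 14 measured, 4 were at least 2-fold higher in week 2 and none in week 3, with a median log2 ratio of 0.75. *Iigp1*, an IRG that acts on the vacuoles of intracellular parasites, was at 334 CPM (329 to 338) in week 2 and 105 CPM (102 to 107) in week 3. *Irgm1*, a regulator of the family, was at 146 and 54.8 CPM, *Igtp* was at 344 and 169 CPM, and *Gbp8* was at 73.8 and 34.7 CPM. *Gbp4* (410.1 and 267 CPM) and *Ifi47* (329 and 190.2 CPM) were within 2-fold. The median cell had 12 UMIs of the list in week 2 and 6 in week 3, and 71.9% of week 2 cells lay above the week 3 median. *Ifngr1*, the binding chain of the interferon γ receptor, did not differ by 2-fold, at 45.5 and 44.9 CPM, and *Ifngr2*, the signalling chain, was at 31.1 and 61.8 CPM. *Ifng* itself had 541 UMIs in week 2 (9.43 CPM) and 0 in week 3. By the rule of 3, and not the exact interval used elsewhere, a count of 0 allows up to 3 UMIs. In the fresh libraries *Ifng* was at 7.87 CPM (naïve), 3.61 CPM (week 2) and 21.9 CPM (week 3). The part of *Ifng* in the levels of GBP and IRG genes was not tested. Names of both gene lists come from background knowledge, and many of their members respond to either interferon.

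Both interferon lists carry the same element. The core pattern GAAANNGAAA was present on either strand in 3.99% of all promoters and in 4.48% of those of measured genes. It was present in 23 of 43 measured type I interferon-induced genes with a promoter entry (53.5%), in 8 of the 13 that were at least 2-fold higher in week 3, and in 8 of 9 GBP and IRG genes, so the pattern did not separate the list that was higher in week 3 from the list that was higher in week 2. Windows are given as above, with *Rsad2* and *Ifit3b* for the week 3 genes and *Irgm1* and *Igtp* for the week 2 genes. The chemokine gene *Cxcl10*, whose levels are given below, has 1 match to this pattern and 2 to the NF-kB pattern in the 250 bases before its start, and the nearest match to each is shown.
Rsad2, chr12:26456548-26456587, reverse strand: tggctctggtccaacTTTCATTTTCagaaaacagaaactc
Ifit3b, chr19:34607788-34607827, forward strand: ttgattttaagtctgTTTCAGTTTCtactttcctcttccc
Irgm1, chr11:48871421-48871459, reverse strand: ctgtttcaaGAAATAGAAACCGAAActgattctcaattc
Igtp, chr11:58199507-58199546, forward strand: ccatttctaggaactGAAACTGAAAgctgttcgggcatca
Cxcl10 interferon element, chr5:92349078-92349117, reverse strand: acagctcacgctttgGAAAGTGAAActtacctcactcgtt
Cxcl10 NF-kB element, chr5:92348969-92349008, reverse strand: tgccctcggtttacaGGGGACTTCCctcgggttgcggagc

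In summed counts the type 2 cytokines did not move as a group. In cells thinned to 5000 UMIs, the list of type 2 and growth cytokines had medians of 11 UMIs in week 2 and 17 UMIs in week 3. The 99th percentiles had the opposite order, at 221 and 146 UMIs. *Il13* was at 3501 CPM in week 2 and 4318 CPM in week 3, *Il5* at 1321 and 928 CPM, and *Areg*, amphiregulin, at 1090.3 and 599 CPM, all within 2-fold. *Il4* was at 39.1 and 29.7 CPM. *Csf2*, the growth factor GM-CSF, was lower in week 2, at 60.0 and 183 CPM, and a UMI of it was found in 10.3% of week 2 cells and 43.5% of week 3 cells thinned to 5000 UMIs. *Il9* was at 115 and 342 CPM, but 4 cells of week 2 and 5 cells of week 3 held 50% of its UMIs. It was under 2-fold without the 5% of cells with the most UMIs, with a mean over cells and with thinning to 5000 UMIs. *Il10*, an anti-inflammatory cytokine, was higher in week 2, at 45.1 CPM (43.4 to 46.9) against 0.954 CPM (0.726 to 1.23), and a UMI of it was found in 7.07% and 0.141% of cells. *Il22*, an ILC3 cytokine, was at 21.8 and 138 CPM, with 50% of its UMIs in 2 and 3 cells.

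Chemokines differed in both directions. Of 5 measured, 3 were at least 2-fold higher in week 3 and 2 in week 2. *Cxcl10*, a ligand of CXCR3 on T cells and NK cells, was at 58.2 CPM (56.2 to 60.2) in week 2 and 427 CPM (422 to 432) in week 3. A UMI of it was found in 4.46% and 27.0% of cells, and 15 and 108 cells held 50% of its UMIs. *Ccl5*, a chemokine that attracts T cells, was at 45.2 and 154 CPM, and *Ccl1*, a ligand of CCR8, was at 14.3 and 76.3 CPM. For *Ccl5* 11 and 14 cells held 50% of the UMIs, and for *Ccl1* this was 1 cell and 5 cells. The neutrophil chemokines *Cxcl2* (28.0 and 1.65 CPM) and *Cxcl3* (32.6 and 1.07 CPM) were higher in week 2, where 5 and 2 cells held 50% of their UMIs.

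Receptors for the 3 culture cytokines differed unequally. *Il2ra*, the α chain that raises the affinity for IL-2, was at 1107 CPM (1098 to 1116) in week 2 and 356 CPM (351 to 361) in week 3, a log2 ratio of 1.63. *Il2rg*, the common γ chain, had the opposite order, at 203 and 442 CPM, and *Il2rb* was at 81.6 and 90.4 CPM. *Il1rl1*, which encodes ST2, the receptor of IL-33 and a marker of the sort, was at 46.7 and 121 CPM, and *Il1rap*, its co-receptor, was low in both at 2.74 and 3.36 CPM. *Crlf2*, the TSLP receptor chain, was at 122 and 92.2 CPM, and *Il7r*, with which it pairs, was at 566 and 690.3 CPM. Both chains of the IL-18 receptor were lower in week 2, *Il18r1* at 36.9 and 94.1 CPM and *Il18rap* at 41.0 and 151 CPM. *Il1r2*, the decoy receptor of IL-1, was at 261 and 231 CPM.

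Genes of JAK and STAT signalling and its feedback differed in both directions. *Socs3*, which blocks JAK kinases at receptors such as gp130, was at 196 CPM (192 to 199.7) in week 2 and 40.4 CPM (38.8 to 42.0) in week 3, and a UMI of it was found in 50.4% and 15.5% of cells. *Socs1* was at 953 and 502 CPM, within 2-fold, and *Cish*, a STAT5 target of the same family, had the opposite order at 169.7 and 262 CPM, also within 2-fold. *Jak2* was at 190.0 and 449 CPM, *Jak1* at 301 and 469 CPM, and *Stat6*, the factor of IL-4 and IL-13 signalling, at 20.5 and 43.3 CPM, and the last was within 2-fold with TMM factors or with 5 CPM added. The kinase *Pim1*, a STAT5 target, was within 2-fold at 365 and 405 CPM. Of the 17 genes on this list, 1 was at least 2-fold higher in week 2 and 2 in week 3, with a median log2 ratio of -0.34. Over all genes the shares were 2.31% and 3.16%.

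Transcription factors of ILC2s were mostly lower in week 2, by less than 2-fold. Of 18 measured, 13 had a lower level in week 2, and the median log2 ratio was -0.63. *Gata3* was at 568 and 899 CPM, *Rora* at 203 and 339 CPM and *Id2*, which blocks the B and T cell fates, at 1110.2 and 1693 CPM. *Id3* (7.06 and 31.4 CPM), the ligand-gated factor *Ahr* (8.16 and 26.2 CPM) and *Tox* (42.2 and 88.0 CPM) were at least 2-fold lower in week 2, though *Tox* was within 2-fold with TMM factors, a mean over cells, thinning and 5 CPM added. *Nfil3*, needed for early ILC precursors, was at 91.3 and 38.6 CPM, and *Irf4*, which lies downstream of antigen and cytokine receptors, was at 35.0 and 13.7 CPM. *Zeb2*, a repressor also found in effector T cells, was at 45 and 147 CPM. It is on another list, of type 1 and type 17 transcription factors, where 5 genes were measured with a median log2 ratio of 0.10. On that list 1 gene was at least 2-fold higher in week 3, *Zeb2*, and 1 in week 2, *Hopx*, at 28.4 and 10.6 CPM.

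The leading genes of week 2 were carried by few cells. *Gzmc*, granzyme C, had 56161 UMIs in week 2 (979 CPM, 971 to 987) and 66 in week 3 (1.07 CPM, 0.826 to 1.36). In week 2, 18 cells held 50% of its UMIs, and 45 of 2895 cells (1.55%) held 90%. *Pth*, parathyroid hormone, had 29390 and 26 UMIs (512 and 0.421 CPM), and 13 cells held 50% of those of week 2. *Mcpt8*, the basophil protease mMCP-8, had 6918 and 66 UMIs (121 and 1.07 CPM), with 50% in 17 cells. The 45 cells richest in *Gzmc* contained 205 of the *Pth* UMIs and 0.101% of the *Mcpt8* UMIs, so most UMIs of both genes lay in other cells. Whether the same cells carried *Pth* and *Mcpt8* was not examined. In the fresh libraries *Gzmc* was at most 2.47 CPM and *Mcpt8* was at 0, while *Pth* was at 23.1 CPM in week 2 and at 0 in the other 2.

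The *Gzmc*-rich cells were described further because their genes weigh on the sums of week 2. Each held at least 461 UMIs of *Gzmc*, and their median total was 28354 UMIs against 13478.5 in the other week 2 cells. They contributed 2.95% of all week 2 UMIs but 97.3% of those of *Ccl1*, 79.9% of *Il22*, 66.8% of *Fcer1g*, an adaptor of Fc and NK receptors, and 62.9% of *Nkg7*, a protein of cytotoxic granules. A single cell held 743 of the 820 week 2 UMIs of *Ccl1*, and 5 cells held 90% of those of *Il22*, so these values are of a few cells and not of all 45. The *Gzmc*-rich cells also held 39.1% of the UMIs of *Cd3g* and 34.1% of those of *Ifitm1*. Markers of NK cells and ILC1s were concentrated in them, with 82.2% of the UMIs of the receptor gene *Klrd1* (447 CPM against 2.95 CPM in the other week 2 cells), 88.3% of *Ncr1*, which encodes NKp46, and 91.1% of *Klre1*. *Tbx21*, the factor T-bet, had 66.7% of its 15 UMIs there, while *Gzma* had 0.42%. Most ILC2 markers were lower in these cells than in the other week 2 cells. *Gata3* was at 169.6 and 580.3 CPM, *Il7r* at 191 and 578 CPM and *Icos* at 276 and 1178 CPM. The markers with the opposite order were *Il1rl1* (86.3 and 45.5 CPM), *Id2* (1414 and 1101 CPM) and *Thy1* (323 and 136 CPM). These values describe cells chosen by *Gzmc*, and no cell type was assigned to them. Without these cells, a step chosen after the data had been seen, 127 of the 130 genes higher in week 2 stayed at least 2-fold higher when their own level was taken without the 20 CPM limit, and *Fcer1g*, at 66.3 and 22.1 CPM with all cells, had a log2 ratio of 0.03.

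Most UMIs of the granule genes *Gzmb* and *Srgn* and of the class II gene *H2-Aa* lay outside the *Gzmc*-rich cells. Those cells held 15.9% of the week 2 UMIs of *Gzmb*, 14.5% of *H2-Aa* and 2.90% of *Srgn*. They contributed 2.95% of all week 2 UMIs, so *Gzmb* and *H2-Aa* were enriched in them. *Gzmb* was at 7030 CPM there and 1129 CPM in the other week 2 cells. The granule genes *Nkg7* (62.9%) and *Ctsw* (46.8%) had larger shares of their UMIs there, while the 90.3% of *Gzmc* was set by how the cells were chosen. Of 9 measured granzyme and granule genes, 6 were at least 2-fold higher in week 2 and 1 in week 3. *Gzmb*, a granzyme that triggers death of target cells, was at 1303 and 346 CPM, with 50% of its UMIs in 73 cells of week 2 and 54 cells of week 3. *Gzma* was at 20.8 and 0.178 CPM, with 50% in 1 cell. *Srgn*, the proteoglycan that packs granules, was the broad member, at 1957 and 930.3 CPM with 222 and 640 cells. The median cell had 8 UMIs of this list in week 2 and 6 in week 3, while the 99th percentile was 237 and 60.7 UMIs. *Gzmb* and *Gzmc* are close paralogs, and shared reads make their levels uncertain. Of 6 measured MHC class II pathway genes, 4 were at least 2-fold higher in week 2. The median cell had 2 UMIs of the class II list in both weeks, while the 99th percentile was 20.1 and 9 UMIs. *H2-Aa* (20.5 and 0.162 CPM) and *H2-Eb1* (21 and 0.340 CPM), chains of the class II molecules, had 50% of their week 2 UMIs in 11 and 12 cells, and *H2-Ab1* (55.6 and 24.7 CPM) had them in 84 cells. The invariant chain *Cd74* was at 224 and 194 CPM.

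Some further week 2 genes were carried by more cells. *Ly6c1*, a surface protein with a lipid anchor, was at 540.1 and 25.3 CPM and was found in 36.9% of week 2 cells and 5.37% of week 3 cells. *Glrx*, a glutaredoxin that reduces glutathionylated proteins, was at 173 and 21.4 CPM, found in 44.7% and 9.76%. *Satb1*, a chromatin organiser of lymphocytes, was at 120.1 and 20.2 CPM, and *Aqp9*, a channel for water and glycerol, was at 50.6 and 7.88 CPM. *Gem*, a small GTPase, was at 71.8 and 14.2 CPM, and *Rgcc*, a cell-cycle regulator that responds to complement, was at 51.1 and 9.96 CPM. *Slpi*, a secreted inhibitor of proteases, was at 103 and 13.3 CPM, and *Cd24a* was at 70.2 and 9.51 CPM. These 2 were not broad, as 14 and 23 cells of week 2 held 50% of their UMIs.

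**Figure D3:**
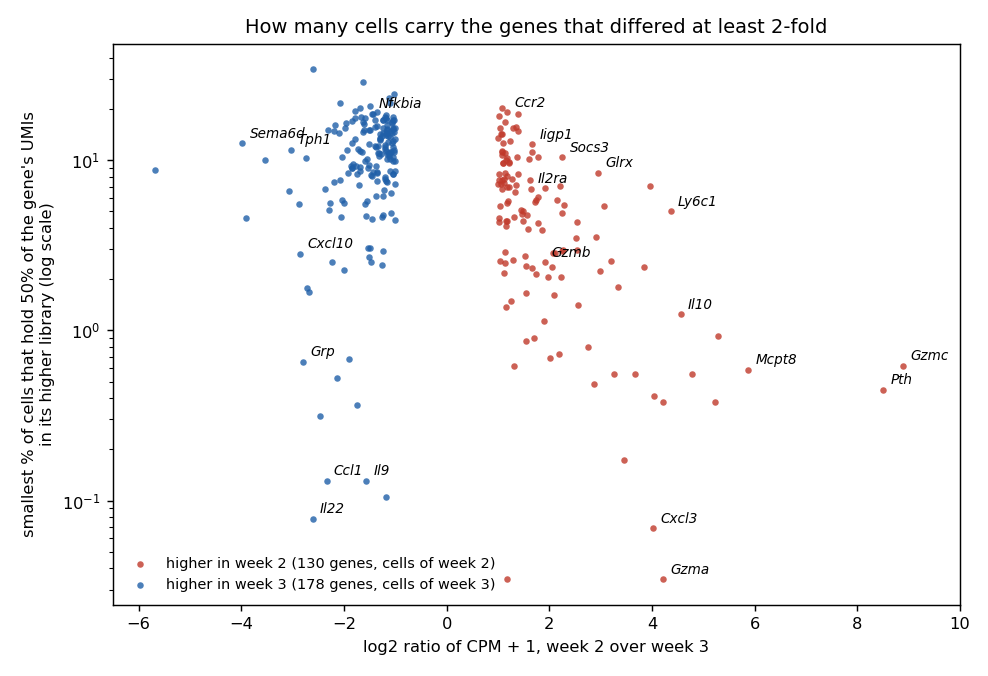
For each gene that differed by at least 2-fold, the smallest % of cells of its higher library that hold 50% of its UMIs (y axis, log scale) against its log2 ratio of week 2 over week 3 (x axis; red: 130 genes higher in week 2, blue: 178 higher in week 3). The median is 4.85% of cells for week 2 genes and 11% for week 3 genes, and *Gzma*, *Cxcl3*, *Il22*, *Il9* and *Ccl1* lie at the bottom, with 5 cells or fewer each.

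Genes that were higher in week 3 were in the main carried by more cells. Over all 5627 genes, the smallest share of cells that held 50% of a gene's UMIs had a median of 10.9% in week 2 and 11.9% in week 3. Among the 178 week 3 genes it was 11% of week 3 cells, and among the 130 week 2 genes it was 4.85% of week 2 cells. The share was under 1% for 21 of the 130 and for 9 of the 178. A gene near the 20 CPM limit has few UMIs per cell, and the part of level in these shares was not tested.

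The leading genes of week 3 had varied roles. *Sema6d*, a semaphorin that signals through plexin A1, was at 8.87 CPM (8.12 to 9.68) in week 2 and 155 CPM (152 to 158) in week 3, and a UMI of it was found in 2.42% and 43.0% of cells. *Creb5*, a factor of the ATF and CREB family, was at 5.25 and 71.1 CPM. *Tph1*, the rate-limiting enzyme of serotonin synthesis outside the brain, was at 199.8 CPM (196 to 203) and 1651 CPM (1641 to 1661), found in 14.5% and 60.2% of cells. *Ptger4*, the EP4 receptor of prostaglandin E2, was at 42.6 and 214 CPM, and *Cysltr2*, a leukotriene receptor, was at 17.5 and 47.0 CPM, while *Cysltr1* was at 646 and 467 CPM. *Dgat2*, the last enzyme of triglyceride synthesis, was at 9.68 and 53.9 CPM. Members of the MS4A family, *Ms4a4c* (23.5 and 163 CPM) and *Ms4a6c* (10.8 and 85.2 CPM), and *Lst1*, a leukocyte gene of the MHC region (11.6 and 60.4 CPM), had the same order. *Grp*, the peptide that releases gastrin, was at 34.7 and 248 CPM, with 50% of its UMIs in 9 and 25 cells, and the neuropeptide gene *Calca* was at 145 and 399 CPM.

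Costimulation and checkpoint genes moved in both directions. *Cd28*, the receptor of B7 ligands, was at 31.3 and 146 CPM and was found in 9.82% and 46.2% of cells. *Tnfrsf25*, the receptor DR3 of TL1A, was at 34.9 and 93.1 CPM, and *Cd70*, the ligand of CD27, was at 16.0 and 111 CPM. *Cd48*, a ligand of 2B4, had the reverse order at 229.8 and 86.9 CPM. *Icos* (1151 and 1012 CPM) and *Tnfrsf18*, GITR (609.5 and 636 CPM), were within 2-fold. *Pdcd1lg2*, a ligand of PD-1, was at 35.8 and 83.8 CPM, and *Lilrb4a*, an inhibitory receptor whose reads its neighbour *Lilr4b* may share, was at 45.5 and 96.3 CPM, within 2-fold with a mean over cells or without cells with cell-cycle genes. *Ctla4* was at 23.9 and 0.954 CPM, with 50% of its week 2 UMIs in 16 cells.

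Several chemokine receptors were higher in week 2. Of 16 measured homing genes, 4 were at least 2-fold higher in week 2 and 1 in week 3, against 2.31% and 3.16% of all genes. *Ccr2*, the receptor of CCL2, was at 659 CPM (653 to 666) and 292 CPM (288 to 296) and was found in 85.5% and 57.2% of cells. *Ccr1* was at 82.1 and 17 CPM, *Ccr10* at 39.9 and 13 CPM, and *Itgb7*, an integrin chain of gut homing, at 193 and 90.6 CPM. *Cd44*, the receptor of hyaluronan, was at 168 and 347 CPM, within 2-fold with all deposited barcodes or TMM factors. *Cxcr6* was within 2-fold at 815 and 662 CPM.

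More week 2 cells carried cell-cycle genes. After thinning to 2000 UMIs, 2 or more of the 12 cell-cycle genes were detected in 673 of 2822 week 2 cells (23.8%, 95% exact interval 22.3 to 25.5) and 672 of 3714 week 3 cells (18.1%, 16.9 to 19.4). None of 23 DNA replication genes or 25 mitosis genes differed by 2-fold, and their median log2 ratios were 0.26 and 0.33. Within the cells that carried cell-cycle genes these medians were -0.01 and -0.07, a description only, since the cells were chosen by genes of the same kind. *Mki67* was at 156 and 189.9 CPM, *Top2a* at 282 and 305 CPM and *Rrm2* at 113 and 61.5 CPM. Histone genes had a different order, and of 10 measured 4 were at least 2-fold higher in week 3, among them *Hist1h4d* (22.2 and 91.5 CPM) and *Hist1h1e* (67.5 and 144 CPM). Histone mRNAs lack a poly(A) tail and have near-identical copies, so their levels on a 3' platform are uncertain.

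Housekeeping lists and some others stayed close, where 94.5% of all 5627 genes were within 2-fold. No gene of the 79 measured ribosomal protein genes, 80 nuclear respiratory chain genes, 13 mitochondrially encoded genes, 25 cholesterol and fatty acid genes, 20 ER genes, 10 heat shock chaperones, 16 immediate early genes or 20 MHC class I genes differed by 2-fold. *Gapdh* was at 2955 and 2627 CPM and *B2m* at 3225 and 2941 CPM. Of 31 glycolysis and hypoxia genes, *Slc2a3*, a glucose transporter, was higher in week 2 (25.6 and 5.79 CPM) and *P4ha2*, a collagen prolyl hydroxylase, was higher in week 3 (33.3 and 115 CPM). *Phgdh*, the first enzyme of serine synthesis (104 and 47.7 CPM), and *Cebpb* (136 and 38.8 CPM) were at least 2-fold higher in week 2.

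**Figure D4:**
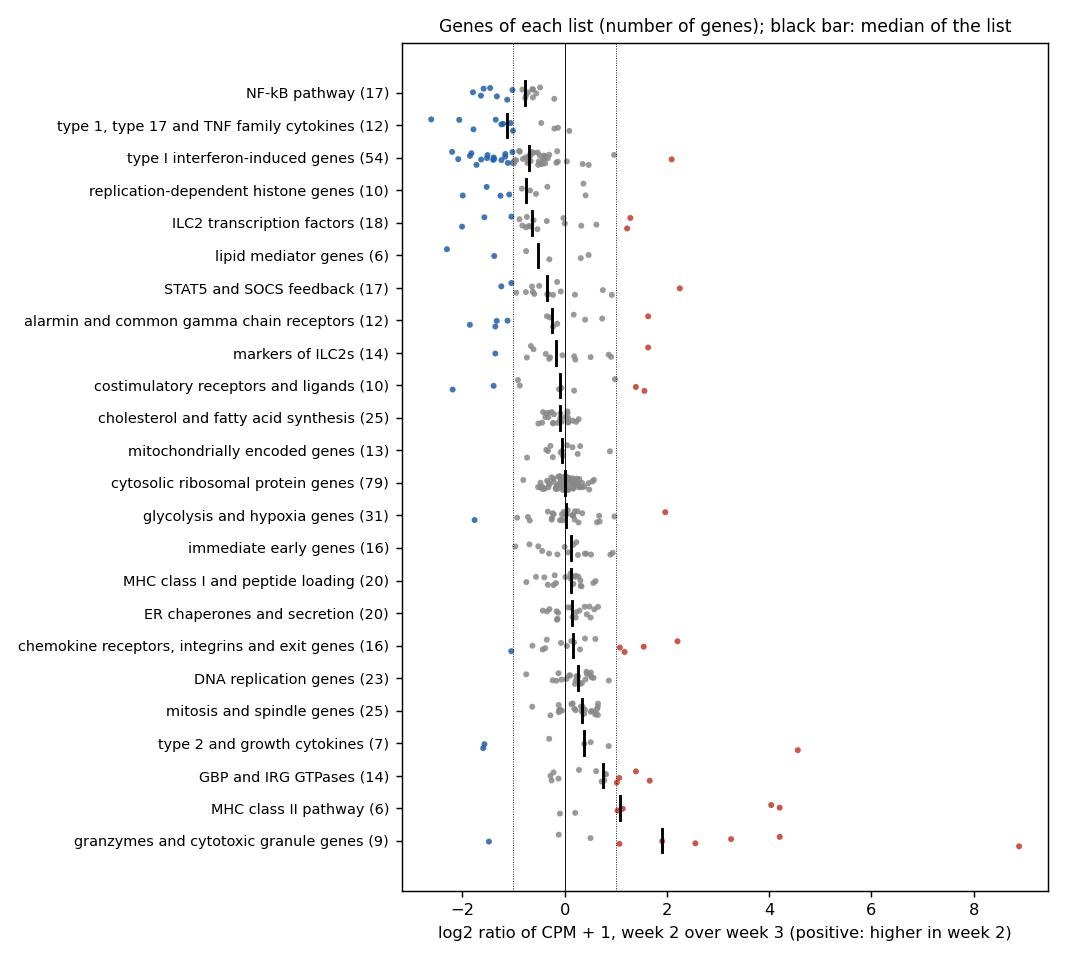
Log2 ratio of week 2 over week 3 (x axis) of every measured gene in 24 gene lists (y axis, with the number of genes), 1 point per gene, coloured where at least 2-fold (red: week 2, blue: week 3), with a black bar at the median of the list. NF-kB pathway genes lie wholly to the left of 0, ribosomal protein genes lie within 2-fold around 0, and granzyme and granule genes reach 8.89 (*Gzmc*).

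Markers of other cell types ranged widely, and some were higher in week 2. None of the myeloid, dendritic cell, granulocyte, endothelial or fibroblast markers reached 20 CPM in either library. Summed levels in week 2 and week 3 were 22.4 and 0.906 CPM for fibroblast markers, among them *Lum* at 17.8 and 0.307 CPM. They were 6.47 and 0.0162 CPM for granulocyte, 19.6 and 16.0 CPM for endothelial, 2.39 and 2.99 CPM for myeloid and 1.20 and 3.02 CPM for dendritic cell markers. The summed level of the 12 T cell markers was 692 CPM in week 2 and 438 CPM in week 3, 4 of them were measured, and *Cd4* was near 0 with 1 and 21 UMIs. *Trbc2* (309 and 253 CPM) and *Trbc1* (95.6 and 64.5 CPM), near-identical constant regions of the T cell receptor β chain whose split is uncertain, were within 2-fold. *Tcrg-C1*, a γ chain constant region, was at 40 and 18.9 CPM and was within 2-fold in several alternatives. *Cd3g*, a chain of the T cell receptor complex, was at 222 and 91.9 CPM, with 50% of its week 2 UMIs in 43 cells, and its log2 ratio of 1.26 was 0.59 without the *Gzmc*-rich cells. *Ighm* (21.1 and 5.06 CPM) and *Epcam* (21.4 and 1.99 CPM) were the measured B cell and epithelial markers, while *Cd79a* had 5 and 11 UMIs and *Sftpc* had 0 in both. Of the NK and ILC1 markers *Gzma* alone reached 20 CPM, *Klrd1* was at 16.1 and 0.388 CPM and *Tbx21* had 15 and 0 UMIs. The 2 measured mast cell and basophil markers had opposite orders. *Mcpt8*, at 121 and 1.07 CPM, made up most of the summed 136 CPM of week 2, and *Kit*, a mast cell and progenitor marker, at 14.3 and 35.3 CPM, made up most of the 39.1 CPM of week 3. *Cpa3*, a defining mast cell gene, had 4 UMIs and 1 UMI, and *Fcer1a*, a chain of the IgE receptor, had 0 in both. The part of other cell types in the differences between the weeks was not tested, and fewer cells of a type cannot be told apart from less RNA per cell in summed counts.

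Levels in the 3 fresh libraries were set beside those of the cultures. Over the measured genes the Spearman correlation, across genes that are not independent, of the cultured log2 ratio with the fresh log2 ratio of week 2 over week 3 was 0.07. Of the 130 genes higher in cultured week 2, 76 had at least 20 CPM in a fresh tumour-associated library, of which 16 were at least 2-fold higher in fresh week 2 and 35 in fresh week 3. Of the 178 genes higher in cultured week 3, 116 had that level, of which 50 were at least 2-fold higher in fresh week 2 and 26 in fresh week 3. Among all 4937 measured genes with that level the shares were 12.6% for fresh week 2 and 13.3% for fresh week 3. The fresh week 3 library was shallower (median 4396 UMIs against 16090 in fresh week 2) and carried T cell markers at a summed 6771 CPM against 305 CPM, and the part of these in the fresh ratios was not tested.

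Several cytokine genes were far from their fresh levels. *Il13* was at 8861 CPM in fresh week 2 cells and 19.6 CPM in fresh week 3 cells, while the cultures differed by less than 2-fold. *Il9* was at 12576 CPM in fresh week 2 and at 0 in fresh week 3. *Csf2* was at 1432 and 31.6 CPM and *Tph1* at 424 and 3.83 CPM in the fresh libraries, the opposite order to the cultures. Interferon-induced genes were lower in all fresh libraries, as in *Rsad2* (0.957, 0.0903 and 9.69 CPM in naïve, week 2 and week 3) and *Ifi27l2a* (7.69, 2.05 and 51.6 CPM), and the summed level of the 60 genes listed was 1163, 1273 and 1796 CPM against 10134 and 15473 CPM in the cultures. *Iigp1* was likewise at 2.69, 7.01 and 11.7 CPM. *Il1rl1* was at 791 CPM in naïve cells and at 121 CPM or less in the other 4 libraries.

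**Figure D5:**
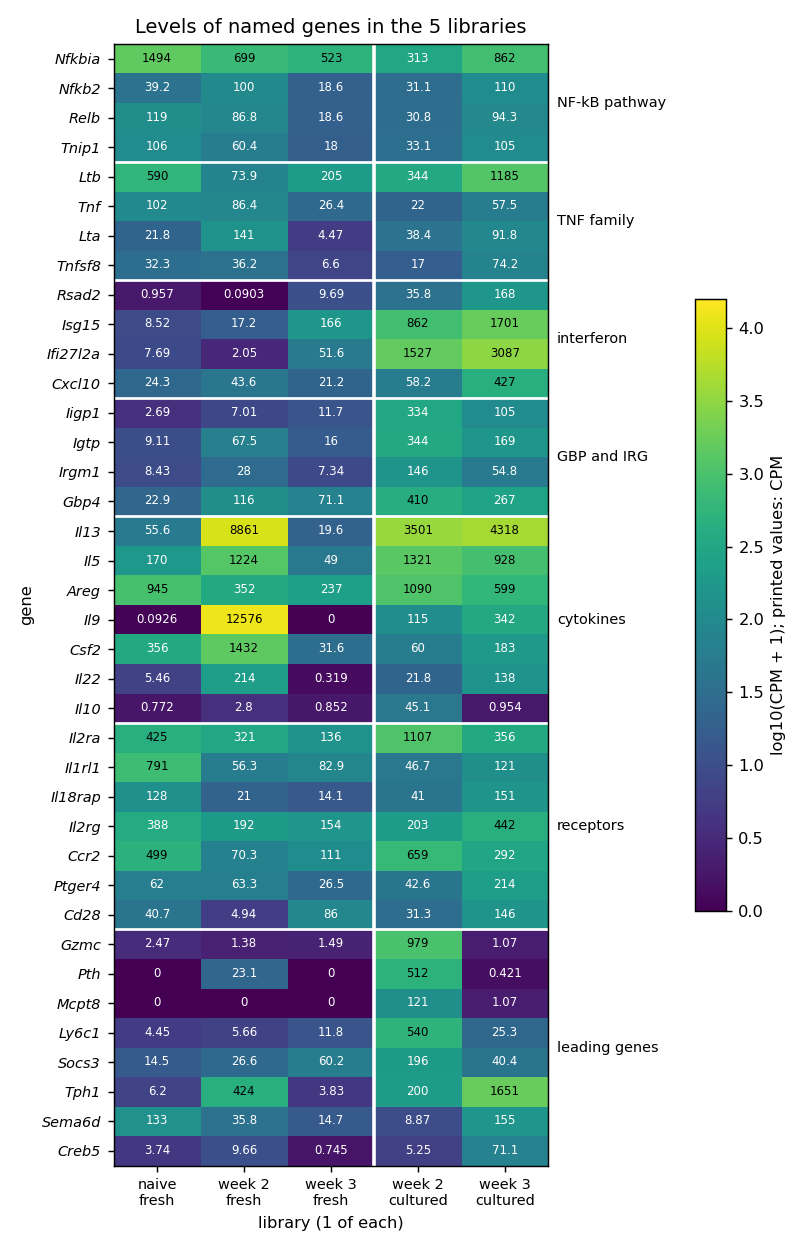
Levels of 38 named genes (rows) in the naïve, fresh week 2, fresh week 3, cultured week 2 and cultured week 3 libraries (columns), coloured by log10(CPM + 1), with the CPM printed in each cell. Interferon-induced and GBP or IRG genes are lower in the 3 fresh libraries than in both cultures, while *Gzmc*, *Pth* and *Mcpt8* have their highest level in cultured week 2.

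Gene structure moved with the ratio. Across 5626 measured genes with an intron length in GENCODE M21, the Spearman correlation of the log2 ratio with intron length was -0.23, a description over genes that share both libraries. The median log2 ratio was 0.03 in the class of genes with the shortest introns, -0.07 in the middle class and -0.20 in the class with the longest, of 3 classes of near-equal size. NF-kB pathway genes were lower in week 2 in each class, with medians of -0.72 (7 genes), -0.83 (7 genes) and -0.63 (3 genes). The part of intron length in the differences between the weeks was not tested.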

How the data were processed

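Single-cell RNA of ILC2s was sequenced on the 10x Genomics 3' platform, 1 library per group. The authors deposited filtered matrices of whole UMI counts per gene and barcode, aligned to GRCm38 with Cell Ranger (version 3.0.2 per the labels and file headers, 6.0.0 in the header of the naïve library), and the submitters' processing notes also name Seurat 3. The gene annotation used for counting is not given in the sources used here. The 27726 genes common to the libraries were analysed. Cells below 200 detected genes or with a mitochondrial share of 5% or more were removed, counts were summed per library and scaled to CPM, and log2 ratios were taken with 1 CPM added for genes with at least 20 CPM in either cultured library. The kept cells held 57352180 UMIs in week 2 and 61830293 in week 3. With 1 library on each side no test was made. Intervals are exact Poisson (CPM) or Clopper-Pearson (shares) at 95%, and UMIs are counted once per molecule. No doublet caller was run, and removal of the 5% of cells with the most UMIs stood in for it. Promoters are RefSeq's for GRCm38.p6, and intron lengths are from GENCODE M21, which matched 27639 gene identifiers.

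Named genes are the 15 with the largest ratio in each direction among those with at least 50 CPM (gene models without a name counted but not described), up to 6 members past 2-fold and up to 4 with the highest CPM in each list, the ILC2 markers, and the receptors of the culture cytokines. *Lars2*, *Ifng*, *Il4*, *Cish*, *Ifit1*, *Ifit3* and the markers *Klrd1*, *Ncr1*, *Klre1*, *Tbx21*, *Cd4*, *Cd79a*, *Sftpc*, *Cpa3* and *Fcer1a* fall outside this rule and were chosen after their values were seen. The comparison and the gene lists were chosen with earlier results of these data known. The alternatives were all barcodes, a 10% mitochondrial limit, TMM factors, a mean over cells, removal of cells with cell-cycle genes or with the most UMIs, thinning to 5000 UMIs, other pseudocounts and other CPM limits. Python 3.11.15, numpy 2.4.6, scipy 1.17.1, pandas 2.3.3, matplotlib 3.10.9 and R 4.3.3 with edgeR 4.0.16 were used. The ratio and calling steps were tested on simulated library totals with Poisson noise only, and thinning was tested on simulated cells. The summing over cells was not tested in this way.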

Additional observations from a re-analysis of the deposited data

Results flagged for a closer look

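For 12 leading genes the order of the weeks in the fresh libraries was opposite to that in culture. These had at least 20 CPM in a fresh tumour-associated library and differed there by at least 2-fold. Leading genes with the same order in both settings are not listed here. Among all 4937 measured genes with that level, 12.6% were at least 2-fold higher in fresh week 2 and 13.3% in fresh week 3. The difference between the settings was not tested, as each is 1 library. Values are fresh log2 ratios of week 2 over week 3. Of genes that were higher in cultured week 2, *Cd24a* was at -7.72, *Gem* at -5.30, *Rgcc* at -4.12, *Satb1* at -3.90 and *Socs3* at -1.15. Of genes that were higher in cultured week 3, *Il22* was at 7.35, *Tph1* at 6.46, *Cd70* at 4.13, *Dgat2* at 3.43, *Sema6d* at 1.23, *Ptger4* at 1.23 and *Cxcl10* at 1.01. The depth of the fresh week 3 library and its T cell markers, given above, differed from fresh week 2, and their part in these ratios was not tested.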

How the results depend on the processing

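With 1 library on each side the week cannot be told apart from the pool, the culture or the library, and no replicate could be left out. The 130 genes higher in week 2 became 256 with a limit of 5 CPM (275 in week 3) and 65 with a limit of 50 CPM (123 in week 3). Under the other settings the counts stayed within 109 to 145 for week 2 and 151 to 203 for week 3. The genes changed more than the counts, since 97 of the 130 and 151 of the 178 were shared with thinning, and 104 and 146 with the mean over cells. Of 109 named genes past 2-fold, between 101 and 109 stayed past it, and *Penk* alone changed direction, from 1.18 to -0.084 without the 5% of cells with the most UMIs. *Il22* was under 2-fold there, at -0.86, as was *Il9*. *Ifi27l2a*, *Tox*, *Traf1*, *Cd44*, *Stat6*, *Lilrb4a*, *Tcrg-C1*, *Cd226*, *Il9* and *Penk* were within 2-fold under more than 1 setting. Of 35 list medians, 10 changed sign under some setting. The mean over cells gave medians of -0.99 for the NF-kB pathway, -0.45 for type I interferon-induced genes, 0.96 for GBP and IRG genes, 0.33 for type 1 and type 17 transcription factors, 0.14 for ILC2 markers and -0.20 for neuropeptide genes. Thinning gave -0.50 for type I interferon-induced genes and 0.95 for GBP and IRG genes. Without cells with cell-cycle genes the medians were -0.094 for mitosis genes, 0.11 for the 12 cell-cycle genes and -1.24 for histone genes, fewer such cells being the construction of that setting. Without the 5% of cells with the most UMIs they were -1.48 for chemokines and -0.32 for neuropeptide genes, and without the *Gzmc*-rich cells 1.70 for granzymes. Other causes were not tested.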
